A study of Mus musculus with 12 samples.

Results

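The complement and coagulation factors made by hepatocytes were described in liver RNA of 6 A1cf -/- mice (KO) and 6 wild-type mice (WT). The set holds 39 genes chosen by name, of 46882 gene names in the count table. All 39 were in the table, and all 39 were among the 13706 genes abundant enough to be tested. Both groups were C57BL/6 mice aged 6 to 8 weeks. The KO mice carried the A1cf -/- genotype, for which no cell type or promoter is given, and each group is described in the series as 6 biological replicates. The A1cf product binds RNA in liver and gut cells and was first described as a cofactor of the deaminase that edits the Apob transcript. Total counts per library ran from 22129092 to 51082317 in KO and from 25898171 to 40597491 in WT. No 2 libraries of a group were alike within counting noise. A1cf itself was at 10.6 ± 1.55 CPM in KO livers and 50.9 ± 2.26 CPM in WT livers (CPM, counts relative to the TMM-scaled library total; SD, n = 6 each), with no overlap.

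Hepatocytes release most of the circulating clotting and complement proteins as inactive precursors. In coagulation, proteases activate each other in turn until thrombin converts fibrinogen to fibrin, which plasmin later dissolves. In complement, the classical and lectin pathways and the alternative pathway meet at C3, and the terminal components then build a pore in the target membrane. Fibrinogen, C3 and several of their partners are also acute phase proteins, whose transcription in liver rises during inflammation under interleukin 6, STAT3 and C/EBP factors. Because whole liver was sequenced, fewer hepatocytes and less RNA per hepatocyte cannot be told apart in any value below.

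The tissue label held up against its markers. The 9 hepatocyte markers (Alb, Ttr, Apoa1 and others) summed to between 83493 and 105755 CPM in KO livers and between 91173 and 114880 CPM in WT livers, and none was at 0. The 11 Kupffer cell and macrophage markers summed to between 138 and 491 CPM in KO livers and between 134 and 222 CPM in WT livers. The stellate cell and fibroblast markers summed to between 368 and 516 CPM in KO livers and between 224 and 388 CPM in WT livers. The sinusoidal endothelial markers summed to between 232 and 282 CPM in KO livers and between 146 and 289 CPM in WT livers. The cholangiocyte (bile duct cell) markers summed to 28.5 to 515 CPM in KO livers and 34.5 to 121 CPM in WT livers. The neutrophil and monocyte markers summed to 4.10 to 23.6 CPM in KO livers and 2.82 to 7.58 CPM in WT livers. Both sums were highest in KO liver 602. Of the 9 hepatocyte markers 8 lay below 0 in log2 fold change, while all 11 Kupffer cell, all 11 stellate cell and all 10 endothelial markers lay above 0. The stellate cell markers Pdgfrb (0.43) and Lrat (0.68) and the endothelial marker Stab2 (0.48) passed the test in edgeR (adjusted p = 0.0239, 0.0265 and 0.0452), and are named after their values were seen. The part of these differences in the results on hepatocyte genes was not tested.

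The 3 fibrinogen genes lie side by side on chromosome 3 (mm10), with 11026 bases between Fgg and Fga and 6513 bases between Fga and Fgb. Fga and Fgg are read from the plus strand and Fgb from the minus strand. Their promoters are shown because these genes moved together across the livers. The ratios of Fgb to Fga and of Fgb to Fgg also did not overlap between genotypes. Those ratios belong to 12 pairs chosen after the values had been seen. Each runs from 250 bases before to 50 bases after the start of the gene, 5′ to 3′ on the gene's strand, as in RefSeq on GRCm38.p6. Capitals mark matches to 3 letter patterns, searched on both strands. These are TTNNGCAA for C/EBP factors, TTCNNNGAA for STAT factors and CTGGGAA for the interleukin 6 response element. The Fga promoter is chr3:83025903-83026202 on the plus strand, the Fgb promoter chr3:83049814-83050113 on the minus strand and the Fgg promoter chr3:83007474-83007773 on the plus strand.
Fga: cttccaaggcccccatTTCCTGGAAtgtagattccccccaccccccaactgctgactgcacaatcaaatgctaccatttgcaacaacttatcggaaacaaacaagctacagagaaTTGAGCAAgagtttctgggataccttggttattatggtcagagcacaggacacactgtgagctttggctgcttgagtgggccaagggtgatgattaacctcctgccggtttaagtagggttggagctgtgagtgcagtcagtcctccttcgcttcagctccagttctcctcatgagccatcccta
Fgb: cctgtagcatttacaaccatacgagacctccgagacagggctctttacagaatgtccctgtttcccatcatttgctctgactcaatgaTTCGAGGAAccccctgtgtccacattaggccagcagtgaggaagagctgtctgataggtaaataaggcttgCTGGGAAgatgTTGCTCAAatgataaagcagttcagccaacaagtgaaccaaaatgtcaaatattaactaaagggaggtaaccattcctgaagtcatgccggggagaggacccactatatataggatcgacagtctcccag
Fgg: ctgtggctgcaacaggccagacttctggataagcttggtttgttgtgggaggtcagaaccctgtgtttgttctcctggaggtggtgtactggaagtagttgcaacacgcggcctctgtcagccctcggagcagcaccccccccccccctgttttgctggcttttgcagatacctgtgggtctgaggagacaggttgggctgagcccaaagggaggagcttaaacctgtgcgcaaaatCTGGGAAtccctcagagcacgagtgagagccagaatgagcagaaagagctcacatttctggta
Fga held a STAT match 234 bases and a C/EBP match 135 bases before the start. Fgb held a STAT match at 162, an interleukin 6 element at 91 and a C/EBP match at 80 bases before the start. Fgg held only an interleukin 6 element, 13 bases before the start. No 2 of these matches overlapped.

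Promoters could be matched by symbol for 31 of the 39 genes. The C/EBP pattern was found in 13 of these 31 (41.9%), against 12.2% of all 27025 genes with a promoter of this length. It was present in C3, C9, Cpb2, F9, F11, Hrg, Klkb1, Kng2, C1ra, C1rl, C1s1, Fga and Fgb. The STAT pattern was found in 8 of 31 (25.8%), against 9.55% of all genes, and the interleukin 6 element in 8 of 31 (25.8%), against 12.7%. An HNF4 pattern (CAAAGTCCA) was found in none of the 31, against 0.555% of all genes. A pattern this rare cannot show a lack of HNF4 sites in 31 genes. A match describes letters in this window and is not a measured binding site.

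Levels can be compared between genes only per length, as CPM per kilobase of exon. On that scale C3 led, at 1929 ± 876 in KO livers and 1816 ± 869 in WT livers (SD, n = 6 each). The 3 fibrinogen chains, vitronectin (Vtn), plasminogen (Plg), Hrg and Kng1 followed, with group means between 749 and 1317 in KO livers and between 746 and 1389 in WT livers. Neighbours in this leading group did not differ beyond their spread between livers. The lowest levels were those of Cfb at 5.2 ± 2.1 in KO livers and 6.3 ± 3.1 in WT livers, and of Klkb1 at 8.1 ± 1.7 in KO livers and 9.5 ± 2.0 in WT livers. Both low values are uncertain, because 79.5% of the exonic length of Cfb is shared with the gene model Gm20547 and 90.8% of that of Klkb1 with Cyp4v3. Reads over 2 genes are left out by the counting tool's default. The same holds for 54.9% of Masp2, 42.8% of C2 and 18.4% of C1s1. C4b, C1ra, C1s1 and the 2 kininogen genes have near-identical copies, with which they could share reads.

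**Figure D1:**
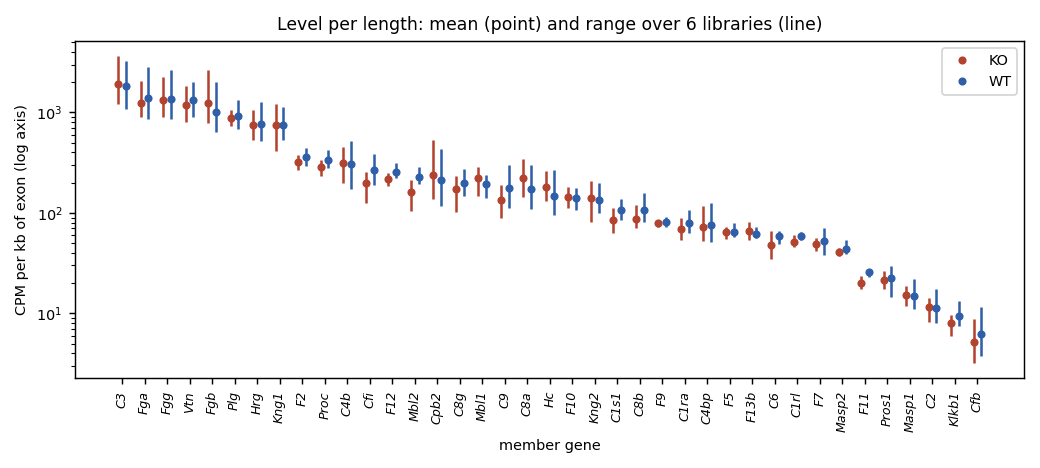
Level of each of the 39 genes per length of exon (CPM per kilobase, log axis), ordered by the mean in WT livers. Points are group means, lines run from the lowest to the highest of 6 livers, KO in red at the left of each pair and WT in blue; the ranges of KO and WT overlap for all 39 genes.

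Of the 39 genes 1 fell in KO livers and 0 rose in edgeR's quasi-likelihood test. The gene that fell was F11, coagulation factor XI. Over all 13706 genes tested, 3.82% passed the adjusted threshold of 0.05 in either direction and 2.09% were lower in KO, so 1 lower gene of 39 lies near that background. At an unadjusted p under 0.05, 5 of 39 (12.8%) were lower and 0 higher (F11, F12, C1rl, Mbl2 and C6), against 21.2% of all genes in either direction and 9.9% lower. DESeq2 and limma-voom each called 1 lower and 0 higher. In log2 fold change 25 genes lay below 0 and 14 above, with a median of -0.06, against 0.01 over all genes. Among the 6025 genes within the members' range of mean level the median was -0.04. No gene of the set had KO and WT values without overlap, which 3.3% of all genes had. Values per library are given below in CPM for KO livers 574, 584, 588, 591, 602 and 780, and for WT livers 573, 590, 601, 776, 777 and 778, in that order.

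The procoagulant proteases whose glutamates are carboxylated with vitamin K are prothrombin (F2) and factors VII, IX and X. None of the 4 passed the test, and their log2 fold changes ran from -0.18 to 0.03. F2 was at 1289, 1334, 1751, 1511, 1703 and 1226 CPM in KO livers, against 1563, 2053, 2055, 1500, 1447 and 1333 CPM in WT livers. The groups overlapped widely, with the highest WT values in livers 590 and 601 (log2 fold change -0.18 ± 0.14 SE, adjusted p = 0.513, edgeR). F9, which forms the tenase complex with factor VIII, was the steadiest gene of the set. It lay between 198 and 233 CPM in KO livers and between 199 and 247 CPM in WT livers, a log2 fold change of -0.04 ± 0.08. F7, the partner of tissue factor, and F10, the protease of the prothrombinase complex, had changes of -0.09 and 0.03. F5, the cofactor of factor Xa, was at 0.01. F13b, the carrier subunit of the fibrin-crosslinking factor XIII, was at 173, 161, 203, 174, 136 and 162 CPM in KO livers, against 157, 185, 150, 141, 157 and 154 CPM in WT livers. It had its lowest KO value in liver 602, where most other genes of the set were highest.

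The contact system starts clotting on negatively charged surfaces and releases bradykinin. Its factor XI gene, F11 (chromosome 8, 45241170 to 45262031, minus strand, mm10), gave the only call of the set. F11 was at 46.7, 42.4, 53.2, 38.99, 51.4 and 40.0 CPM in KO livers, against 59.5, 60.6, 59.3, 60.8, 54.8 and 51.6 CPM in WT livers. KO liver 588 lay above WT liver 778 and the other 5 KO livers lay below every WT liver. The log2 fold change was -0.35 ± 0.09 (SE, adjusted p = 0.0425, edgeR; exact permutation test, two-sided p = 0.00433). F11 kept an adjusted p under the threshold in only 2 of 12 fits that each left out 1 library (those without KO 588 or KO 602), with values between 0.05004 and 0.0866 in the others, and it also missed the threshold with library totals only and with no low-count filter. The change had the same direction among livers numbered 573 to 602 (-0.37, 5 KO and 3 WT) and among those numbered 776 to 780 (-0.47, 1 KO and 3 WT).

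Factor XII (F12), which activates factor XI, did not pass, at 364 to 486 CPM in KO livers and 439 to 620 CPM in WT livers (log2 fold change -0.23, adjusted p = 0.233, edgeR). Klkb1, the prekallikrein gene 7410 bases from F11, was at 14.9 to 24.2 CPM in KO livers and 18.7 to 33.3 CPM in WT livers (-0.24, adjusted p = 0.408). Most of its exons are shared with Cyp4v3, so its change is uncertain. The kininogen genes Kng1 and Kng2, the bradykinin precursors and cofactors of the system, had log2 fold changes of 0.00 and 0.09.

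Fibrinogen is a hexamer of paired Aα, Bβ and γ chains, encoded by Fga, Fgb and Fgg. None of the 3 passed the test. Fga was at 3406, 3808, 3410, 2797, 6180 and 2698 CPM in KO livers, against 3595, 8532, 4187, 3389, 2771 and 2607 CPM in WT livers. Fgb was at 3768, 4028, 4091, 3563, 9995 and 3011 CPM in KO livers, against 3305, 7594, 4021, 3023, 2631 and 2443 CPM in WT livers. Fgg was at 2419, 2763, 2429, 2290, 4750 and 1892 CPM in KO livers, against 2462, 5560, 3191, 2205, 1865 and 1801 CPM in WT livers. All 3 chains were highest in KO liver 602 and WT liver 590 and lowest in KO liver 780 and WT liver 778. The log2 fold changes were -0.17 ± 0.29 for Fga, 0.31 ± 0.34 for Fgb and -0.05 ± 0.29 for Fgg (SE), small beside the spread between livers.

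Ratios between the chains, chosen after the values had been seen, differed in these livers where the levels did not pass. For every count of Fga there were 1.106, 1.058, 1.1998, 1.274, 1.617 and 1.116 counts of Fgb in KO livers, against 0.920, 0.890, 0.960, 0.892, 0.949 and 0.937 in WT livers. Every KO liver lay above 1 and every WT liver below it. These are counts, and Fgb has 3810 bases of exon against 3010 for Fga, so 1 does not mark equal levels per length. The mean ratio was 1.23 ± 0.205 in KO livers and 0.925 ± 0.0294 in WT livers (SD, n = 6 each). The difference in log2 ratio was 0.40 (exact permutation test, two-sided p = 0.00216, the smallest that 924 assignments allow). Beta to gamma chain ratios did not overlap either, at 1.46 to 2.10 in KO livers and 1.26 to 1.41 in WT livers (difference 0.29, exact p = 0.00216). How often ratios of other genes that move together fail to overlap between these groups was not computed. The gamma to alpha ratio was closer, at 0.701 to 0.819 in KO livers and 0.651 to 0.762 in WT livers (difference 0.11, exact p = 0.0476).

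These ratios belong to 12 pairs of partner genes, which were chosen after the values of the set had been seen. After Benjamini-Hochberg adjustment over the 12 pairs, Fgb to Fga and Fgb to Fgg had an exact p of 0.013, and Fgg to Fga one of 0.0952. The adjustment covers these 12 pairs and not their choice among all pairs of the set. The exact p-values of all pairs, here and below, are therefore descriptions and not tests. Within KO the 3 livers with the highest acute phase transcripts, 602, 591 and 588, had the 3 highest Fgb to Fga ratios, and without KO 602 the difference in log2 ratio was 0.31. Over the 12 ways of leaving out 1 library the difference ran from 0.31 to 0.44. It was 0.42 among livers numbered 573 to 602 (exact permutation p = 0.0357) and 0.27 among those numbered 776 to 780, where KO had 1 liver. In WT the livers with the highest acute phase transcripts, 590 and 601, had the lowest and the highest ratio, 0.890 and 0.960. The KO livers with low levels, 574, 584 and 780, had ratios of 1.106, 1.058 and 1.116, above all WT livers. In edgeR the log2 fold change of Fgb minus that of Fga was 0.476 with genotype alone. It was 0.366 with the acute phase level as a covariate. The part of the acute phase level in the ratio was not tested. A ratio shows unequal change and not which of the chains changed.

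**Figure D2:**
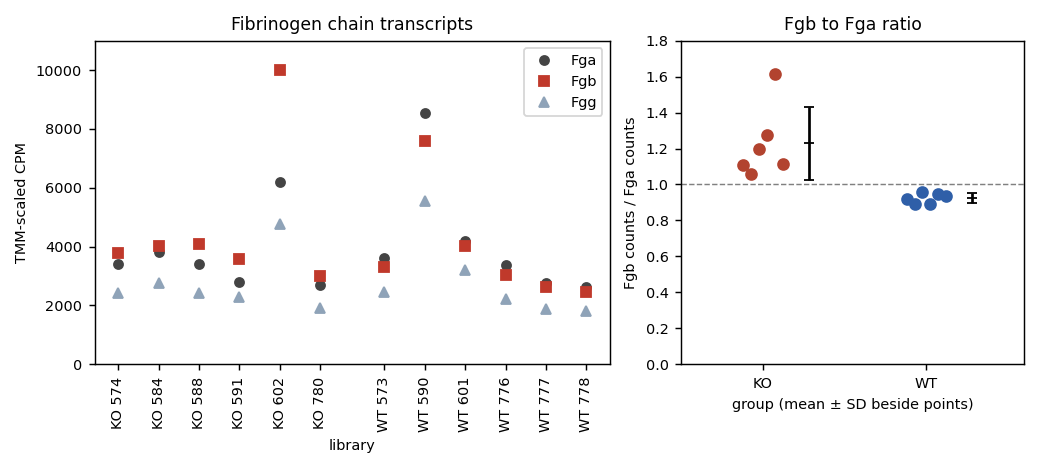
Left, TMM-scaled CPM of Fga, Fgb and Fgg in each of the 12 livers. Right, counts of Fgb over counts of Fga per liver, KO in red and WT in blue, with mean and SD beside the points. The dashed line marks equal counts, not equal levels per length. KO livers lay at 1.06 to 1.62 above it and WT livers at 0.890 to 0.960 below it.

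Protein C (Proc) and its cofactor protein S (Pros1) switch off factors Va and VIIIa, while plasminogen, thrombin-activatable fibrinolysis inhibitor (Cpb2), Hrg and vitronectin act on fibrin and its removal. None of these 6 passed the test, and 5 of 6 lay below 0. Proc was at 429, 406, 522, 480, 500 and 368 CPM in KO livers, against 537, 563, 659, 443, 503 and 437 CPM in WT livers. Of the KO values, 3 lay below all WT values (log2 fold change -0.22 ± 0.12, adjusted p = 0.336, edgeR). Cpb2, which trims the lysines that plasminogen binds, was the most variable gene of the set. It was at 214, 203, 406, 301, 777 and 229 CPM in KO livers, against 197, 631, 473, 208, 187 and 172 CPM in WT livers. The livers at 301 CPM or more were KO 588, 591 and 602 and WT 590 and 601, and the log2 fold change was 0.19 ± 0.43. Plg, Pros1, Hrg and Vtn lay at -0.06, -0.04, -0.03 and -0.17, each with overlapping groups.

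In the classical and lectin pathways, C1r and C1s are the proteases of C1, mannose-binding lectins recognise sugars on microbes and act through the MASP proteases, and C4 and C2 form the C3 convertase. None of these 9 genes passed the test. Mbl2 had the largest negative log2 fold change of the set. It was at 179, 236, 202, 211, 114 and 115 CPM in KO livers, against 317, 259, 289, 216, 216 and 219 CPM in WT livers. KO liver 584 alone reached into the WT range (-0.52 ± 0.18 SE, adjusted p = 0.128, edgeR). The change was -0.65 among livers numbered 573 to 602 and -0.92 among those numbered 776 to 780. Mbl2 (30232928 to 30239685) lies on chromosome 19, as does the targeted gene A1cf (31868761 to 31949406, mm10). Whether sequence near the targeted gene bears on Mbl2, or on its ratio to Mbl1, was not tested. The related lectin Mbl1 lay on the other side of 0, at 138 to 262 CPM in KO livers and 131 to 222 CPM in WT livers (0.21 ± 0.16).

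The Mbl1 to Mbl2 ratio was 0.747 to 2.29 in KO livers and 0.579 to 0.813 in WT livers, a difference of 0.76 in log2 ratio (exact permutation p = 0.00866, 0.026 adjusted over the 12 pairs). Of the KO livers 5 lay above all WT livers. C1s1 was at 206, 198, 354, 294, 325 and 207 CPM in KO livers, against 315, 399, 430, 267, 314 and 304 CPM in WT livers (-0.36 ± 0.17, adjusted p = 0.245, edgeR). The KO livers lowest in C1s1 were 574, 584 and 780. C1ra, 6901 bases from C1s1, did not pass either at -0.21, and the C1ra to C1s1 ratio was 0.7515 to 0.8704 in KO livers against 0.668 to 0.793 in WT livers (difference 0.17, exact permutation p = 0.0108, adjusted 0.026). The C1r-like protease gene C1rl was at -0.20, Masp1 at 0.05, Masp2 at -0.10, C2 at 0.03 and C4b at 0.05.

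C3 is the protein on which all pathways converge, and factor B (Cfb) supplies the protease of the alternative pathway convertase. C3 took 0.642% to 1.77% of all counts in KO livers and 0.569% to 1.57% in WT livers, highest in KO 602 and WT 590. Its log2 fold change was 0.09 ± 0.32. Cfb was at 14.5, 9.07, 17.8, 12.5, 24.8 and 10.01 CPM in KO livers, against 13.4, 32.6, 24.3, 11.6, 13.6 and 10.7 CPM in WT livers. The groups overlapped throughout (-0.26 ± 0.33, adjusted p = 0.697, edgeR), and most of its exonic length is shared with Gm20547.

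The terminal pathway starts with C5, encoded by Hc, after which C6, C7, C8 and C9 assemble. None of the 6 genes tested here passed. C6 was at 141, 173, 195, 192, 264 and 201 CPM in KO livers, against 199, 266, 258, 232, 232 and 240 CPM in WT livers. KO livers 602 and 780 lay inside the WT range, near its top and its bottom (-0.29 ± 0.13, adjusted p = 0.208, edgeR). C9, the pore-forming unit, was at 229, 264, 484, 334, 489 and 277 CPM in KO livers, against 310, 761, 682, 320, 367 and 288 CPM in WT livers. Values for C9 in WT livers 590 and 601 stood above all others (-0.39 ± 0.29, adjusted p = 0.469).

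The 3 chains of C8 did not run together. C8a was at 642, 596, 1060, 786, 1244 and 520 CPM in KO livers, against 450, 1097, 995, 394, 440 and 409 CPM in WT livers. All 6 KO livers lay above the 4 WT livers other than 590 and 601, and the log2 fold change of 0.36 ± 0.32 was the largest positive one of the set (adjusted p = 0.553, edgeR). C8b, whose gene lies 11130 bases from C8a, was at 181 to 303 CPM in KO livers and 207 to 401 CPM in WT livers (-0.29 ± 0.20). The C8a to C8b ratio was 3.54, 2.98, 4.43, 3.96, 4.11 and 2.58 in KO livers, against 2.17, 2.74, 2.63, 1.88, 2.05 and 1.93 in WT livers. Of the KO livers 5 lay above all WT livers, and KO 780 lay among them (difference 0.68 in log2 ratio, exact permutation p = 0.00649, 0.026 adjusted over the 12 pairs). C8g was at -0.20 and Hc at 0.27. The ratios of C8a to C8g and of C8b to C8g, Masp1 to Masp2, Kng1 to Kng2, F11 to Klkb1 and Cfb to C2 had adjusted exact p-values between 0.107 and 0.920.

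Among the inhibitors, factor I (Cfi) cleaves C3b and C4b, and C4b-binding protein (C4bp) is its cofactor. Cfi was at 375, 425, 563, 423, 566 and 277 CPM in KO livers, against 527, 866, 745, 569, 443 and 423 CPM in WT livers. KO livers 574 and 780 lay below all WT livers (-0.44 ± 0.21 SE, adjusted p = 0.238, edgeR). The change was -0.59 among livers numbered 573 to 602 and -0.77 among those numbered 776 to 780. C4bp lay between 354 and 795 CPM in KO livers and between 348 and 849 CPM in WT livers (-0.05 ± 0.26).

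**Figure D3:**
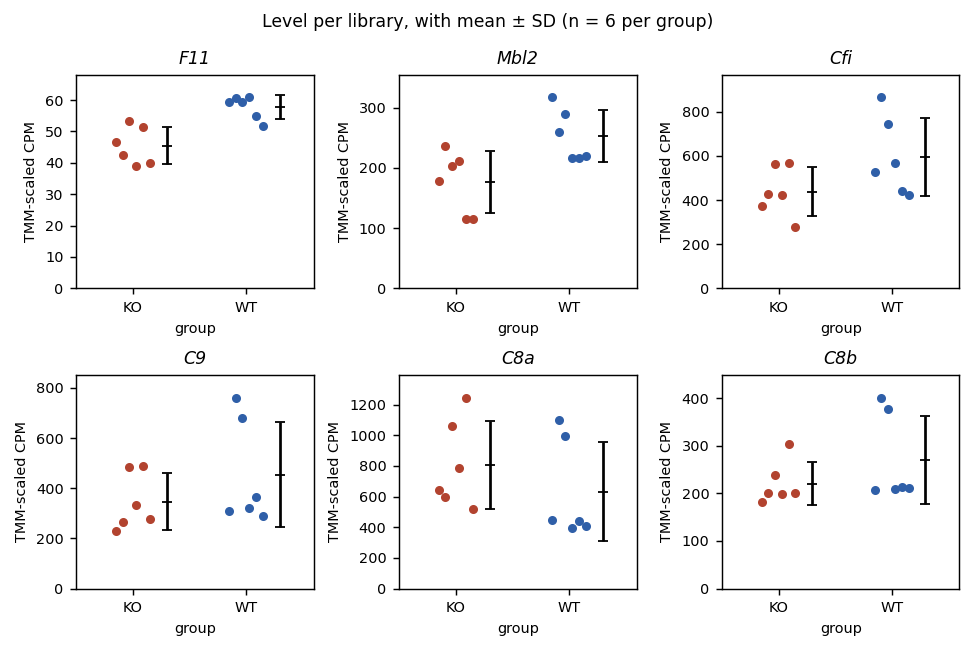
TMM-scaled CPM per liver of F11, Mbl2, Cfi, C9, C8a and C8b, KO in red and WT in blue, with mean and SD beside the points (n = 6 per group). F11 lies at 38.99 to 53.2 in KO livers and 51.6 to 60.8 in WT livers; in C8a and C9 the WT values split into a pair, livers 590 and 601, and a lower group of 4.

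The genes of the set varied more between livers of a genotype than genes in general. The median SD of log2 CPM within a genotype was 0.36 over the 39 genes and 0.24 over all genes tested. Together the 39 genes took 2.92% to 6.35% of all counts in KO livers and 2.85% to 6.49% in WT livers. Of the KO livers, 602 was highest for 26 of the 39 genes, 588 for 9, and 780 was lowest for 21. Of the WT livers, 590 was highest for 27 and 601 for 10, and 778 was lowest for 22. The same livers stood apart in acute phase transcripts. Serum amyloid A1 (Saa1) was at 75.3, 83.8, 3653, 1840, 17489 and 70.3 CPM in KO livers, against 21.0, 8337, 6920, 65.0, 20.9 and 21.0 CPM in WT livers. Saa2 ran from 14.97 to 17474 CPM in KO livers and from 8.26 to 6960 CPM in WT livers, and Orm2 from 7.86 to 2131 CPM in KO livers and from 4.98 to 861 CPM in WT livers. The livers high in all 3 were KO 588, 591 and 602 and WT 590 and 601, so both genotypes held livers of each kind. All of these livers were numbered 573 to 602, and none of those numbered 776 to 780 was high.

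None of the 24 acute phase genes passed the test between genotypes in edgeR. DESeq2 called 1 of them higher, against 548 of all 13706 genes tested. Of the 24 genes, 22 lay above 0 and 2 below, with a median log2 fold change of 0.37, against 0.01 over all genes. Their median SD of log2 CPM within a genotype was 1.06, against 0.24 over all genes tested. The 2 with the smallest p were Cd14, the endotoxin co-receptor, at 1.93 to 4.32 CPM in KO livers and 0.947 to 2.29 CPM in WT livers, and Lbp, which delivers endotoxin to it, at 102 to 129 CPM in KO livers and 114 to 180 CPM in WT livers (adjusted p = 0.108 and 0.115, edgeR). The mean log2 CPM of the list was 6.83, 7.10, 8.43, 7.90, 10.1 and 6.63 in KO livers, against 6.24, 9.25, 8.96, 6.96, 6.40 and 6.26 in WT livers. This level was used as a covariate in a further fit.

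**Figure D4:**
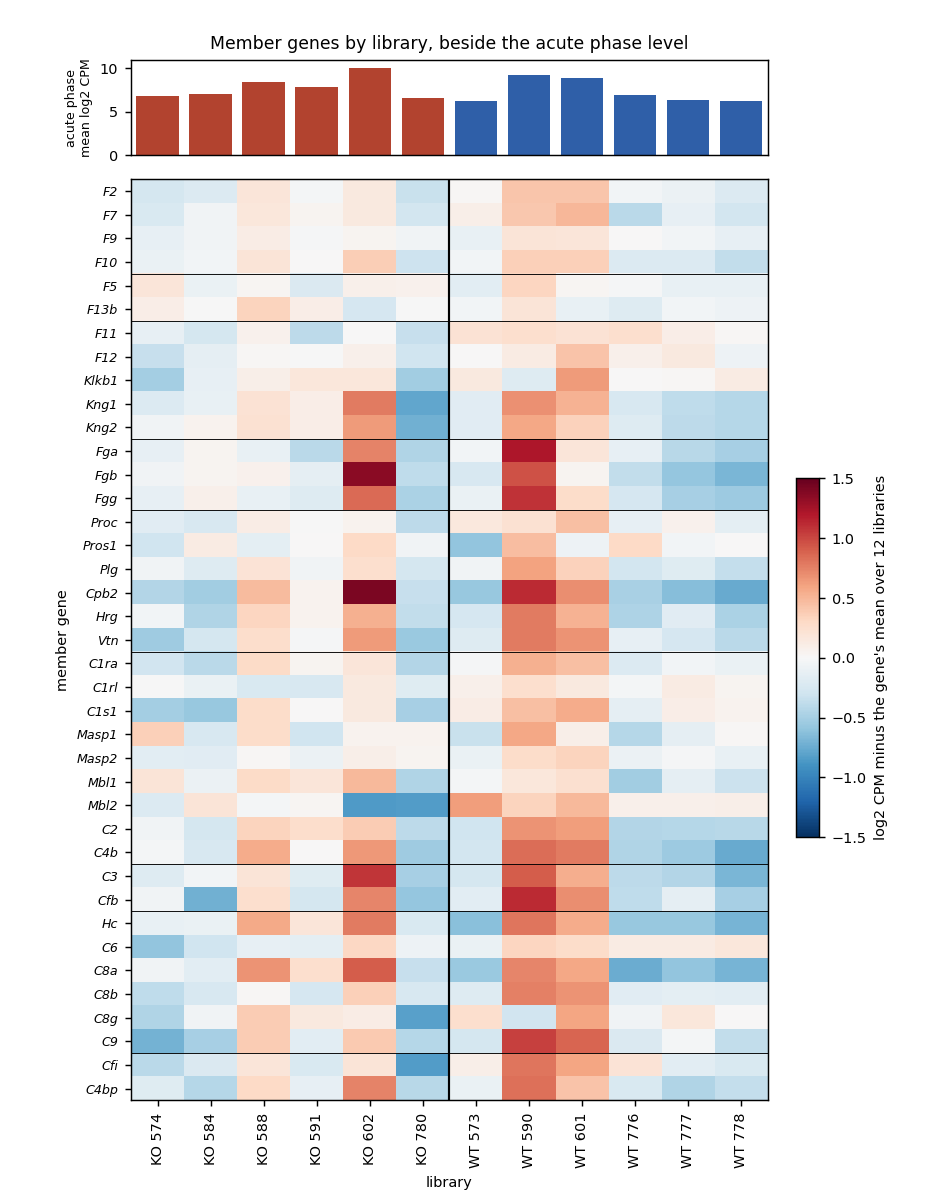
Each row is 1 of the 39 genes grouped by role, each column 1 liver, KO at the left of the line and WT at the right. Colour is log2 CPM minus the gene's mean over 12 livers; bars on top give the mean log2 CPM of 24 acute phase genes, which is highest in KO 602, WT 590 and WT 601, the livers with the most red cells.

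With the acute phase level in the edgeR fit, 7 of the 39 genes were lower in KO and 0 higher, against 6.36% of all genes tested in either direction and 3.71% lower. The 7 were F11 (-0.38), Vtn (-0.33), C1s1 (-0.47), C6 (-0.36), C8b (-0.38), C9 (-0.52) and Cfi (-0.55), with adjusted p-values between 0.00995 and 0.0394. Of these, 3 (C6, C8b and C9) are among the 6 terminal pathway genes of the set. None of these 3 was called when WT 601 was left out of this fit. The median of the 39 genes was -0.16 in this fit, against 0.01 over all genes, and 33 of 39 lay below 0. The other 6 lay above 0, namely C8a (0.22), Hc (0.17), Mbl1 (0.12), F13b (0.09), Fgb (0.09) and Masp1 (0.02), and none of them passed.

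In that fit 38 of the 39 genes had a slope above 0 on the acute phase level across livers, against 6628 of 13706 genes tested. The exception was Mbl2, with a slope of -0.02. The slope, in log2 units per unit of the acute phase level, was 0.56 for Cpb2, 0.42 for C8a, 0.42 for C3 and 0.41 for Fgb. The median standard error of the members' genotype change was 0.10 with the covariate and 0.18 without it, while over all genes it was 0.13 with it and 0.14 without it. Leaving out 1 library at a time from this fit, between 2 and 9 genes of the set were lower and 0 higher. Over all genes the share called was 3.05% in the fit without WT 601, which called 2 members, and 7.59% in that without WT 590, which called 9. The 2 called without WT 601 were F11 and Cfi, which were called in all 12 of these fits. With the library number range as the covariate instead, 3 of the 39 genes (F11, Mbl2 and Cfi) were lower and 0 higher. Over all genes 4.99% passed in either direction and 2.68% were lower. These covariates are tied, because every liver with a high acute phase level was numbered 573 to 602. The fit with the acute phase level assumes that this level moved each gene alike in both genotypes, which was not tested, and the level was measured in the same livers.

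**Figure D5:**
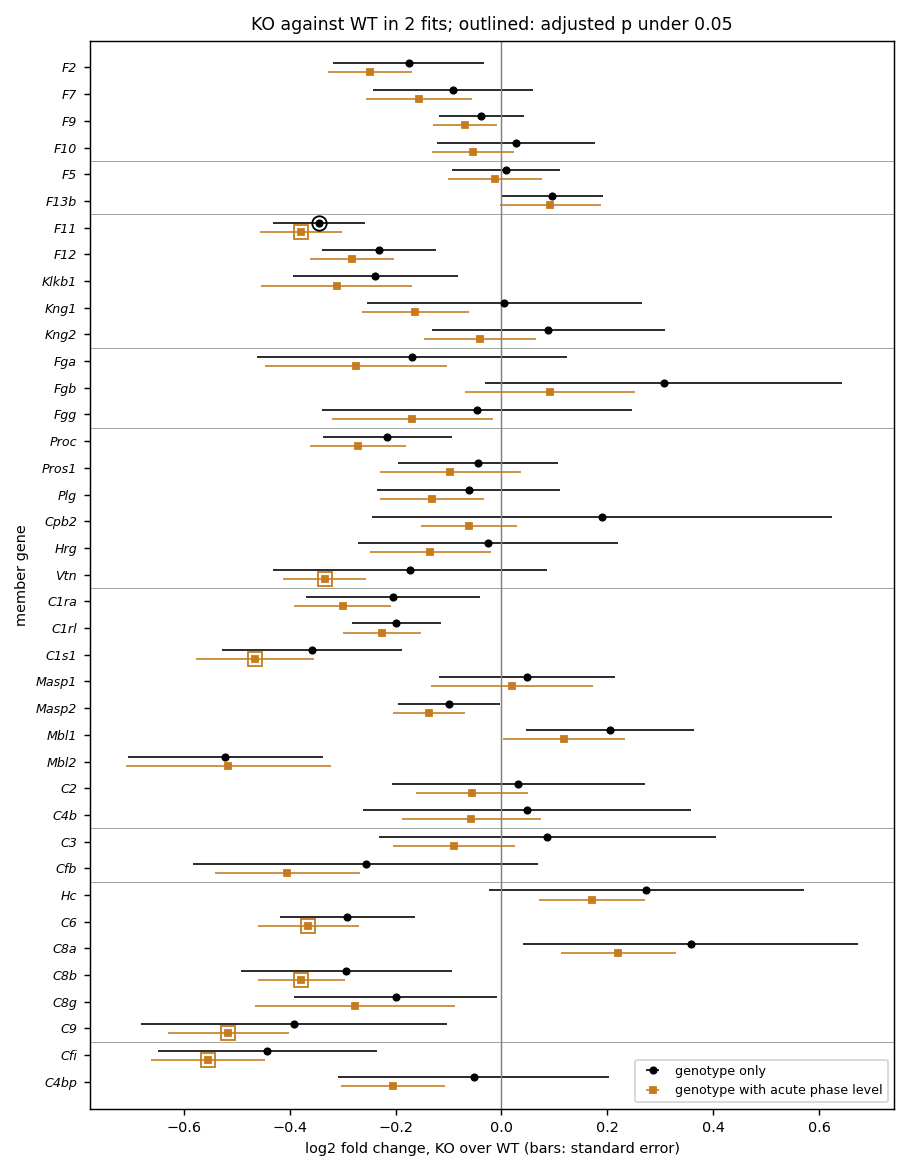
Log2 fold change of each of the 39 genes, KO over WT, with standard error, from the fit with genotype alone (black circles) and with the acute phase level as a covariate (orange squares); outlined points passed an adjusted p of 0.05. Bars shorten and most points shift to the left with the covariate, where 7 genes are outlined, against F11 alone without it.

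Of 10 genes of the vitamin K cycle and of factor processing and secretion, 2 fell in KO livers and 0 rose. Over all genes tested, 2.09% fell and 1.72% rose. Tpst1, a tyrosylprotein sulfotransferase of the Golgi whose family sulfates factors V and VIII, was at 7.99, 8.47, 9.80, 9.89, 12.4 and 11.02 CPM in KO livers, against 16.4, 23.8, 21.4, 16.5, 16.01 and 15.95 CPM in WT livers. The groups did not overlap (log2 fold change -0.89 ± 0.13 SE, adjusted p = 0.00253, edgeR), and Tpst1 passed under every other setting tried. Lman1, which with Mcfd2 carries factors V and VIII out of the endoplasmic reticulum, was at 141, 139, 132, 138, 151 and 140 CPM in KO livers, against 163, 172, 172, 166, 165 and 171 CPM in WT livers. It did not overlap either (-0.26 ± 0.06, adjusted p = 0.0292, edgeR), although it missed the threshold when library totals alone were used, with no low-count filter, among livers numbered 573 to 602 only, and without KO 574, KO 588, KO 591, WT 573, WT 777 or WT 778. Ggcx, the vitamin K-dependent carboxylase, lay at 0.00 and Vkorc1, which regenerates vitamin K, at -0.11.

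Of 20 genes listed as hepatic inhibitors and regulators, 19 were tested and 0 passed, 12 below 0 and 7 above. The 2 with the smallest p were Tmprss6, a hepatocyte surface protease, at 282 to 368 CPM in KO livers and 319 to 458 CPM in WT livers, and antithrombin (Serpinc1), at 1487 to 1814 CPM in KO livers and 1726 to 2297 CPM in WT livers (log2 fold changes -0.27 and -0.24, adjusted p = 0.155 and 0.196, edgeR). Of 19 hepatic transcription factors and interleukin 6 signalling genes, Il6ra and Il6st among them, 1 rose and 0 fell, against 1.72% and 2.09% of all genes tested. Foxa1, a pioneer factor of liver genes, was at 14.1 to 24.8 CPM in KO livers and 9.67 to 17.2 CPM in WT livers (0.65 ± 0.17, adjusted p = 0.0473). It missed the threshold in limma-voom, with no low-count filter, with either covariate, among livers numbered 573 to 602 only, and in 9 of the 12 fits that left out 1 library.

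Of 25 genes of complement and clotting made by other liver cells, 23 were tested and 0 passed in edgeR. At an unadjusted p under 0.05, 10 of them were higher, while DESeq2 called 3 higher and limma-voom 1. Over all 13706 genes tested, 1546 were higher at an unadjusted p under 0.05, 548 in DESeq2 and 260 in limma-voom. Of these 23 genes 20 lay above 0, against 7101 of all 13706 genes tested. Their median was 0.46, while the median of the hepatocyte set lay below 0. Colec11, a collectin of stellate cells, was at 25.7 to 33.9 CPM in KO livers and 16.8 to 28.2 CPM in WT livers (0.50, adjusted p = 0.0534, edgeR). C3ar1, the C3a receptor, was at 1.16 to 3.93 CPM in KO livers and 0.843 to 1.81 CPM in WT livers (0.97, adjusted p = 0.0651). Their summed level was 187 to 363 CPM in KO livers and 185 to 251 CPM in WT livers, and ficolin B (Fcnb) was at 0 in every library. The Kupffer cell, stellate cell and endothelial markers given above lay above 0 too, and their part in these values was not tested. The lists share genes: C1qa, C1qb, C1qc and Vsig4 are also among the Kupffer cell markers, and Colec11 is also among the stellate cell markers.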

How the data were processed

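The authors deposited 1 table of raw fragment counts per gene. Per the file headers they used featureCounts 1.5.0-p2 with GENCODE M8 exons and no strand option. STAR, DESeq2 and mm10 appear in the submitters' processing notes. Exonic lengths, another value deposited in the table, served only for levels per length. Positions are the table's own, on mm10. Samples were grouped by the labelled genotype.

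The main test was that of edgeR 4.0.16 in R 4.3.3 (robust quasi-likelihood test, TMM, filterByExpr with a minimum count of 10, Benjamini-Hochberg over all 13706 genes tested, threshold 0.05), with DESeq2 1.42.0 and limma 3.58.1 as alternatives. "Rose", "fell" and "passed" refer to that threshold. A standard error is the log2 fold change divided by the square root of F. Log2 CPM had a prior count of 2. Ratios of partner genes used deposited counts and exact permutation tests over libraries. The steps were tested on simulated data.

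The members and gene lists were chosen with earlier results of these data known, so their counts are descriptions. Per-library values are given for genes past the threshold, those with the smallest p in each role group, the 5 largest changes, the 3 most variable genes and the fibrinogen chains. From other lists except those of cell type markers, genes past the threshold are named, or else the 2 with the smallest p. Nothing in the labels says that the mice of a group came from separate litters or cages.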

Additional observations from a re-analysis of the deposited data

Results flagged for a closer look

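Among 108 groups of 6 libraries, made in each genotype of the levels of the members, Tpst1, Lman1 and Foxa1 and of the ratios of partner genes, 17 had 1 library far from the others, by Dixon's criterion for the gap to the nearest library as a share of the group's range. The criterion is set for about 1 in 20 among independent, normally distributed values. These groups hold the same livers and genes that moved together, so 17 of 108 cannot be compared with that rate. KO 602 stood apart in KO for the levels of Fga (6180 CPM), Fgb (9995 CPM), Fgg (4750 CPM), Cpb2 (777 CPM) and C3 (18737 CPM), and for the ratios Fgb to Fgg (2.10) and Mbl1 to Mbl2 (2.29). WT 590 stood apart in WT for the levels of F5 (595 CPM), F13b (185 CPM), Fga (8532 CPM), Fgb (7594 CPM) and Fgg (5560 CPM), and for the ratios C8a to C8g (5.003), C8b to C8g (1.83) and C1ra to C1s1 (0.793). WT 601 stood apart in WT for Klkb1 (33.3 CPM) and for the ratio Fgg to Fga (0.762). These 3 libraries also had the highest mean log2 CPM over the acute phase genes, 10.1 in KO 602, 9.25 in WT 590 and 8.96 in WT 601. The part of the acute phase level in these values was not tested.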

How the results depend on the processing

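Over all genes, 523 passed as reported, 1175 in DESeq2, 872 with the acute phase level as a covariate, 684 with the number range as a covariate, 57 among livers numbered 573 to 602 only, 206 without WT 573 and KO 588 (chosen after seeing the data) and between 266 and 638 with each library left out in turn. With library totals only, 266 were higher and 139 lower, against 236 higher and 287 lower as reported. Of the members 1 passed as reported, 0 with library totals only, with no low-count filter, among livers numbered 573 to 602 only and without WT 573 and KO 588, 3 with the number range as a covariate (F11, Mbl2 and Cfi), 7 with the acute phase level as a covariate and 0 to 1 with each library left out. F11 had an adjusted p of 0.0561 with library totals only, 0.0522 with no filter, 0.197 among livers numbered 573 to 602 and 0.0641 without WT 573 and KO 588 (edgeR). The members' median log2 fold change ran from -0.26 to -0.01 under the other settings and from -0.20 to 0.06 with each library left out, above 0 only without WT 590. The difference in log2 ratio of Fgb to Fga ran from 0.31 to 0.44 with each library left out (exact permutation p 0.00216 to 0.00433). The causes were not tested. The direction of 20 members without a call differed from the reported one in 1 or more settings (102 gene and setting pairs, 0 of them past the threshold in either fit). Among these, Fgb was at -0.05 without KO 602, Fga at 0.17 without WT 590, and C3 and Cpb2 at -0.09 and -0.06 with the acute phase level as a covariate. F11, Tpst1, Lman1 and Foxa1 kept their direction in all settings tried. No paired analysis was possible because the groups share no library number. Depth kept no member from being tested.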
